A study of Homo sapiens with 6 samples.

Results

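Glycolysis and hypoxia response genes were examined in SW480, a human cell line from a colorectal cancer, with and without knockdown of PCYT2, the rate-limiting enzyme of the CDP-ethanolamine route to phosphatidylethanolamine. The set holds 39 genes chosen by name, with earlier results of these data known. Of these, 25 encode glucose transporters, glycolytic enzymes and their regulators, and the enzymes and carriers that handle pyruvate and lactate. The other 14 encode the hypoxia-inducible factor HIF1A, the prolyl hydroxylases that control it and further targets of the factor. All 39 were found among the 19746 genes of the deposited tables, by matching Ensembl identifiers to symbols, and 38 had a mean of at least 0.5 FPKM (fragments scaled to transcript length and to the mapped total) and were tested.

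RNA-Seq had been run on 6 libraries in 3 groups of 2: SW480 cells with a nontargeting hairpin (shNT), with a first hairpin against PCYT2 (shPcyt2-1) and with a second one (shPcyt2-2). All 3 groups were infected with lentivirus, selected with puromycin and grown in high-glucose medium with serum. No change of oxygen or glucose is named in the labels or the methods, so the comparison is between knockdown and control under standard culture. Nothing states that the 2 libraries of a group came from separate cultures, and p-values then measure only the spread between these libraries, which may be technical.

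PCYT2 itself was at 11.6 and 13.8 FPKM with shNT, 7.11 and 7.36 FPKM with shPcyt2-1, and 6.71 and 6.18 FPKM with shPcyt2-2. Every knockdown library (4 of 4) lay below both controls. Against shNT the log2 change was -0.73 ± 0.10 (SE) with shPcyt2-1 (adjusted p = 0.00205, limma) and -0.88 ± 0.10 (SE) with shPcyt2-2 (adjusted p = 0.00261, limma). Each fold change here is a difference of mean log2(FPKM + 1), which understates the change of low genes, and each adjusted p is from limma with Benjamini-Hochberg adjustment over all 12756 tested genes. On simulated data this fit made more false calls than its threshold aims for where each gene kept its own shrunken variance. The number of reads is unknown. In each library some of the genes shorter than 150 bases sat at a common step or at 2 steps. The reciprocal of that step put the shallowest library, shPcyt2-1 replicate 1, at 76.3% of the deepest, shNT replicate 1. These are bulk libraries, so fewer cells expressing a gene and less RNA per cell cannot be told apart.

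The labelled cell type was checked against its markers. Of 10 colorectal epithelial markers, 9 were above 0.5 FPKM, led by KRT8 with a mean of 3377 FPKM, and CEACAM5 was at 0.259 FPKM. Their summed level was 8213 and 8771 FPKM with shNT, 8434 and 8527 FPKM with shPcyt2-1, and 6261 and 6557 FPKM with shPcyt2-2. KRT8, KRT18 and KRT19 were lower with shPcyt2-2 and CDX2, an intestinal transcription factor, was lower with shPcyt2-1. That was 33.3% and 11.1% of the 9 markers, against 12.4% and 26.7% of all tested genes (limma, adjusted p under 0.05). The median log2 fold change of the 9 was 0.11 with shPcyt2-2, opposite to the keratins, and 0.023 with shPcyt2-1. The part of these marker changes in the results that follow was not tested. The fibroblast list summed to between 1.88 and 3.80 FPKM, with LUM the most abundant and COL3A1 not listed, and LUM was higher with shPcyt2-1. The endothelial list summed to at most 0.769 FPKM. Of the leukocyte list, CD68 was at 19.5 FPKM while CD3E was at 0.0374 FPKM and PTPRC was not listed. Of the erythroid list, HBA1 was at 21.5 FPKM and HBB at 0.0115 FPKM, and no gene of the leukocyte or erythroid list passed in any of the 3 hairpin comparisons.

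Glycolysis splits glucose into pyruvate through a fixed chain of enzymes, most of which exist as isoforms from separate genes. Pyruvate is then reduced to lactate and exported, or is passed to the mitochondria. When oxygen falls, the prolyl hydroxylases slow, the alpha subunit of HIF escapes degradation, and the factor binds hypoxia response elements near many genes of glycolysis as well as genes for angiogenesis, pH control and mitophagy. Colorectal cancer cells are known for high glucose uptake and lactate output even in oxygen.

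With shPcyt2-1, 16 of the 38 tested genes passed an adjusted p of 0.05, 7 higher and 9 lower. Among all tested genes 26.7% passed, 16.5% higher and 10.1% lower. With median-ratio scaling the members split into 4 higher and 10 lower, and all tested genes into 1422 higher and 1758 lower against 2109 and 1291. With shPcyt2-2, 6 of the 38 passed, 4 higher and 2 lower, against 12.4% of all tested genes, 7.69% higher and 4.74% lower, and with median-ratio scaling all tested genes split into 763 higher and 879 lower against 981 and 604. Between the hairpins, 16 of the 38 differed, 11 of them higher with shPcyt2-2 and 5 lower, where 27.1% of all tested genes differed, 12.9% higher and 14.2% lower, and with median-ratio scaling the members split into 12 higher and 3 lower and all tested genes into 1862 higher and 1671 lower against 1648 and 1815. These comparisons share the shNT libraries or a hairpin and are not independent of one another. When the 4 knockdown libraries were treated as 1 group, no member passed in limma and 6 had an unadjusted p under 0.05, while 0.00784% of all tested genes passed and 2128 of 12756 had an unadjusted p under 0.05. In that fit the spread includes the difference between the hairpins, and with the mean of the hairpins taken from the 3-group fit 6 of 38 members passed, 2 higher and 4 lower, beside 2142 of all 12756 tested genes, 1396 higher and 746 lower.

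The counts of members moved with single libraries, and those of all tested genes, out of 12756, moved with them. With shPcyt2-1, 9 members and 1147 of all tested genes passed without shPcyt2-1 replicate 1. With shPcyt2-2, 10 members and 1893 genes passed without shNT replicate 1, 2 members and 403 genes without shNT replicate 2, and 1 member and 125 genes without shPcyt2-2 replicate 1. Between the hairpins, 9 members and 1891 genes passed without shPcyt2-2 replicate 2.

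The glycolysis genes and the other HIF genes were then described apart. Of the 25, all tested, 5 rose and 3 fell with shPcyt2-1 with a median log2 fold change of -0.0058, and 4 rose and 2 fell with shPcyt2-2 with a median of -0.021. The share that passed was 32% against 26.7% of all tested genes with shPcyt2-1 and 24% against 12.4% with shPcyt2-2, where 2 of the 25 passed without shNT replicate 2 and 1 without shPcyt2-2 replicate 1. Of the 13 other HIF genes tested, 2 rose and 6 fell with shPcyt2-1 with a median of -0.29. That was 61.5% against 26.7% of all tested genes, and 46.2% against 10.1% for those that fell. With median-ratio scaling 1 rose and 7 fell. Fewer of the 13, and also fewer of all tested genes, passed without any one shNT or shPcyt2-1 library. Without shPcyt2-1 replicate 1, 3 of the 13 passed (CA9, NDRG1 and BHLHE40, all lower), beside 1147 of all 12756 tested genes, and 5 passed without shNT replicate 1, shNT replicate 2 or shPcyt2-1 replicate 2. None of the 13 passed in limma with shPcyt2-2, against 12.4% of all tested genes, where 3 had an unadjusted p under 0.05 and the median was 0.063. NDRG1 passed there in 6 of the 18 alternatives, BNIP3L in 2 and P4HA1 in 1. The median over all tested genes was 0.067 with shPcyt2-1 and 0.044 with shPcyt2-2. The difference between the lists was not tested. As the lists were chosen with earlier results of these data known, their shares beside all tested genes are a description only.

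The 2 glucose transporters moved in opposite directions. SLC2A1 (chromosome 1 of GRCh38, 42925375 to 42959176) encodes GLUT1, the main carrier of basal glucose uptake in many cells and a classical HIF target. It was at 467 and 496 FPKM with shNT, 345 and 357 FPKM with shPcyt2-1, and 346 and 356 FPKM with shPcyt2-2. Every knockdown library (4 of 4) lay below both controls and the hairpins overlapped. The log2 fold change was -0.46 ± 0.055 (SE) with shPcyt2-1 (adjusted p = 0.00128, limma) and -0.45 ± 0.055 (SE) with shPcyt2-2 (adjusted p = 0.00319, and 0.0523 without shPcyt2-2 replicate 1, limma). The difference between the hairpins was 0.0017, with a 95% confidence interval from -0.12 to 0.13.

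SLC2A3 (chromosome 12, 7919230 to 7936275) encodes GLUT3, a transporter with a high affinity for glucose. It was at 221 and 209 FPKM with shNT, 267 and 292 FPKM with shPcyt2-1, and 507 and 538 FPKM with shPcyt2-2. The 3 groups did not overlap. On the log2 scale the change was 0.37 ± 0.064 (SE) with shPcyt2-1 (adjusted p = 0.00456, limma) and 1.28 ± 0.064 (SE) with shPcyt2-2 (adjusted p = 5.02e-05, limma), and the difference between the hairpins was 0.90 (adjusted p = 6.97e-05, limma). SLC2A14, a near-identical copy that can share reads with SLC2A3 and was picked after its values were seen, was at 1.01% to 1.29% of the SLC2A3 level in every library and was higher with both hairpins.

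As FPKM is scaled to length, the 2 transporters can be set side by side. GLUT3 transcripts made up 30.9% ± 1.74 (SD, n = 2) of the sum of both with shNT, 44.3% ± 0.949 (SD, n = 2) with shPcyt2-1 and 59.8% ± 0.517 (SD, n = 2) with shPcyt2-2. The sum itself averaged 697 ± 12.5 FPKM in the shNT libraries, 630 ± 26.2 FPKM in the shPcyt2-1 libraries and 874 ± 28.5 FPKM in the shPcyt2-2 libraries (SD, n = 2 each). The more abundant glucose transporter transcript was thus SLC2A1 in the shNT and shPcyt2-1 libraries and SLC2A3 in the shPcyt2-2 libraries.

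Among the enzymes of the 10 glycolytic steps, 15 genes were tested, and 2 rose and 2 fell with shPcyt2-1 while 2 rose and 1 fell with shPcyt2-2. The share that passed was 26.7% with shPcyt2-1, as over all tested genes, and 20% with shPcyt2-2 against 12.4%. These enzymes have many processed pseudogenes that can take a share of their reads, so small changes of their levels are uncertain. HK1 and HK2, the hexokinases among the 39, which phosphorylate glucose in the first step, passed with neither hairpin. HK2, the inducible isoform, was at 31.3 and 31.6 FPKM with shNT, 31.8 and 33.5 FPKM with shPcyt2-1, and 30.0 and 29.6 FPKM with shPcyt2-2. HK1, the constitutive isoform, was at 39.2 FPKM on average with shNT, 41.4 FPKM with shPcyt2-1 and 36.3 FPKM with shPcyt2-2. HK1 held between 53.9% and 56.1% of the level of HK1 and HK2 together in every library. GPI, which turns glucose 6-phosphate into fructose 6-phosphate, fell by 0.36 on the log2 scale with shPcyt2-2 (adjusted p = 0.0188, lower than both controls in both libraries, limma). The GPI call ended without shNT replicate 2 (adjusted p = 0.0623, limma) and without shPcyt2-2 replicate 1 (adjusted p = 0.137, limma).

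Phosphofructokinase commits sugar to glycolysis. Of its isoforms, PFKL and PFKM were higher with shPcyt2-2 than with shPcyt2-1, by 0.30 and 0.40 on the log2 scale (adjusted p = 0.0144 and 0.00329, limma). The difference for PFKP did not pass (0.18, adjusted p = 0.123, limma). PFKL, the liver-type subunit, was at 86.9 and 99.2 FPKM with shNT, 74.1 and 74.3 FPKM with shPcyt2-1, and 91.4 and 91.5 FPKM with shPcyt2-2. It fell with shPcyt2-1 by 0.32 on the log2 scale (adjusted p = 0.0127, and 0.0666 without shPcyt2-1 replicate 1, limma). The PFKL change was -0.16 once GC content and gene length were regressed out of each library (adjusted p = 0.032, limma). PFKM, the muscle-type subunit, was at 42.3 and 39.7 FPKM with shNT, 38.0 and 38.7 FPKM with shPcyt2-1, and 53.0 and 49.3 FPKM with shPcyt2-2. It rose with shPcyt2-2 by 0.31 (adjusted p = 0.0229, limma), a call that ended without shNT replicate 2 (adjusted p = 0.0928, limma) or without either shPcyt2-2 library (adjusted p = 0.147 and 0.055, limma). PFKP, the platelet-type subunit, was at log2 fold changes of -0.18 and -0.0045 and passed with neither hairpin.

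The bifunctional enzymes PFKFB3 and PFKFB4 make and degrade fructose 2,6-bisphosphate, the strongest activator of phosphofructokinase. PFKFB3 was at 14.5 and 14.3 FPKM with shNT, 13.3 and 14.4 FPKM with shPcyt2-1, and 11.8 and 13.4 FPKM with shPcyt2-2, and passed with neither hairpin. PFKFB4 (chromosome 3, 48517684 to 48562015) was at 12.6 and 12.1 FPKM with shNT, 16.8 and 16.95 FPKM with shPcyt2-1, and 12.3 and 12.1 FPKM with shPcyt2-2. Both shPcyt2-1 libraries stood above the other 4. Against shNT the log2 change was 0.42 ± 0.074 (SE) with shPcyt2-1 (adjusted p = 0.00506, limma) and -0.014 ± 0.074 (SE) with shPcyt2-2, and the hairpins differed by -0.44 (adjusted p = 0.00337, limma). UCN2, which overlaps the start of PFKFB4 on the same strand and was picked after its values were seen, was at 1.16 and 1.47 FPKM with shNT, 5.42 and 5.08 FPKM with shPcyt2-1, and 1.17 and 0.660 FPKM with shPcyt2-2. Reads in the overlap can be assigned to either gene, and their part in the PFKFB4 change was not tested.

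Aldolase splits fructose 1,6-bisphosphate. ALDOA (chromosome 16, 30064164 to 30070457), its major isoform, was at 406 and 386 FPKM with shNT, 309 and 147 FPKM with shPcyt2-1, and 317 and 364 FPKM with shPcyt2-2. All 4 knockdown libraries were below both controls, and shPcyt2-1 replicate 2 stood far below the other 5. The log2 fold change was -0.89 ± 0.26 (SE) with shPcyt2-1 (adjusted p = 0.0341, limma) and -0.22 ± 0.26 (SE) with shPcyt2-2. It was -0.36 (adjusted p = 0.0277, limma) without shPcyt2-1 replicate 2 and -1.43 without shPcyt2-1 replicate 1, and did not pass without shNT replicate 1 (adjusted p = 0.101, limma), without shNT replicate 2 (adjusted p = 0.106, limma) or without either shPcyt2-2 library (adjusted p = 0.066 and 0.0661, limma).

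A second annotated gene, AC093512.2 (chromosome 16, 30053090 to 30070420), overlaps ALDOA on the same strand. It was at 33.0 and 46.1 FPKM with shNT, 48.8 and 274 FPKM with shPcyt2-1, and 39.7 and 62.3 FPKM with shPcyt2-2, so the library with the lowest ALDOA had the highest AC093512.2. The sum of both was 439 and 432 FPKM with shNT, 357 and 421 FPKM with shPcyt2-1, and 357 and 426 FPKM with shPcyt2-2. With the summed row in the fit, an alternative chosen after the data were seen, the log2 fold change was -0.17 with shPcyt2-1 (adjusted p = 0.211, limma) and -0.16 with shPcyt2-2 (adjusted p = 0.282, limma). The fall was thus called for the ALDOA row and not for the sum. Reads in the overlap can be assigned to either gene, and their part in the fall of ALDOA was not tested.

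**Figure D1:**
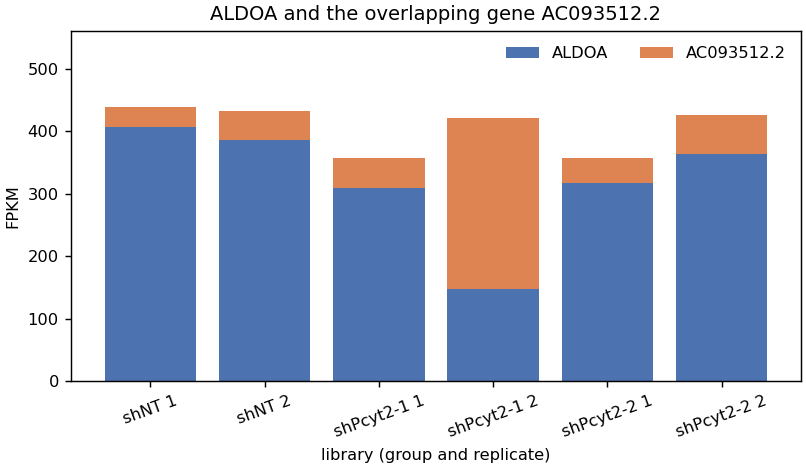
FPKM of ALDOA and of AC093512.2, a gene that overlaps it on the same strand, stacked for each of the 6 libraries (vertical axis from 0). In shPcyt2-1 replicate 2 ALDOA was at 147 FPKM and AC093512.2 at 274 FPKM, while the stack reached 421 FPKM, within the 357 to 439 FPKM of the other libraries.

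ALDOC, the minor aldolase and also a HIF target, was at 11.3 and 10.3 FPKM with shNT, 7.90 and 10.2 FPKM with shPcyt2-1, and 14.3 and 20.9 FPKM with shPcyt2-2. Both shPcyt2-2 libraries lay above the other 4 and were far apart. The log2 fold change with shPcyt2-2 was 0.64 ± 0.16 (SE, adjusted p = 0.0376, limma), was 0.38 (adjusted p = 0.147, limma) without shPcyt2-2 replicate 2, and did not pass without any of the other shNT or shPcyt2-2 libraries (adjusted p = 0.0618, 0.169 and 0.0523, limma). The difference between the hairpins was 0.88 (adjusted p = 0.00515, limma) and passed with each library left out.

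The later stretch of glycolysis yields ATP and reduced NAD. GAPDH, the most abundant member, was at 3093 and 3004 FPKM with shNT, 3630 and 3663 FPKM with shPcyt2-1, and 2865 and 3041 FPKM with shPcyt2-2. It rose with shPcyt2-1 by 0.26 (adjusted p = 0.00813, limma), which was 0.18 (adjusted p = 0.191, limma) with median-ratio scaling and did not pass without either shPcyt2-1 library (adjusted p = 0.0699 and 0.0652, limma). PGAM1, the mutase that shifts the phosphate of 3-phosphoglycerate, was at 113 and 116 FPKM with shNT, 142 and 143 FPKM with shPcyt2-1, and 104 and 111 FPKM with shPcyt2-2. The 3 groups did not overlap for PGAM1. It rose with shPcyt2-1 by 0.32 ± 0.059 (SE, adjusted p = 0.0062, and 0.0556 with median-ratio scaling, limma), was at -0.091 with shPcyt2-2, and differed between the hairpins by -0.41 (adjusted p = 0.00153, limma).

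The other enzymes of this stretch passed with neither hairpin. PKM, the source of the pyruvate kinase of most cancer cells, was at 814 and 862 FPKM with shNT, 823 and 845 FPKM with shPcyt2-1, and 804 and 848 FPKM with shPcyt2-2. The 3 groups overlapped, and the log2 fold changes were -0.0058 (95% confidence interval -0.13 to 0.12) and -0.021 (95% confidence interval -0.15 to 0.10). TPI1, PGK1, ENO1 and ENO2 had log2 fold changes between 0.039 and 0.17 with shPcyt2-1 and between -0.17 and 0.10 with shPcyt2-2. ENO1, the ubiquitous enolase, differed between the hairpins by -0.20 (adjusted p = 0.0237, limma), a call that ended without any one of the 4 knockdown libraries (adjusted p = 0.0987, 0.18, 0.132 and 0.0563, limma). ENO2 passed with shPcyt2-1 with GC content and gene length regressed out (adjusted p = 0.0396, limma). With shPcyt2-2, ENO1 passed without shNT replicate 1 (adjusted p = 0.0412, limma). With the replicate block, PGK1 passed with shPcyt2-1 (adjusted p = 0.047, limma) and ENO1 with shPcyt2-2 (adjusted p = 0.0371, limma). ENO1 held between 97.1% and 97.5% of the level of ENO1 and ENO2 together.

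Of the 6 genes for the fate of pyruvate and lactate, SLC16A1 was the 1 that passed with either hairpin, 16.7% against 26.7% and 12.4% of all tested genes. It encodes MCT1, a carrier of lactate and pyruvate. Its level was 16.1 and 15.1 FPKM with shNT, 23.3 and 21.5 FPKM with shPcyt2-1, and 22.2 and 18.9 FPKM with shPcyt2-2. Each of the 4 knockdown libraries exceeded both controls. On the log2 scale the change was 0.50 ± 0.093 (SE) with shPcyt2-1 (adjusted p = 0.0064, limma) and 0.37 ± 0.093 (SE) with shPcyt2-2 (adjusted p = 0.0339, limma), and the latter did not pass without shNT replicate 2 (adjusted p = 0.143, limma) or shPcyt2-2 replicate 1 (adjusted p = 0.187, limma). SLC16A3, which encodes the lactate exporter MCT4, averaged 125 ± 12.4 FPKM in the shNT libraries, 116 ± 1.18 FPKM in the shPcyt2-1 libraries and 127 ± 2.33 FPKM in the shPcyt2-2 libraries (SD, n = 2 each). It passed with neither hairpin, but was lower with shPcyt2-1 without shNT replicate 1 (adjusted p = 0.0339, limma).

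LDHA, the lactate dehydrogenase subunit that favours lactate and a HIF target, was at 477 and 426 FPKM with shNT, 400 and 412 FPKM with shPcyt2-1, and 496 and 542 FPKM with shPcyt2-2. It was lower than both controls in both shPcyt2-1 libraries and higher in both shPcyt2-2 libraries. Neither LDHA comparison with shNT passed with all libraries (adjusted p = 0.132 and 0.0878, limma), though the first did without shNT replicate 2 (adjusted p = 0.0476) and the second without shNT replicate 1 (adjusted p = 0.0269), while the hairpins differed by 0.35 (adjusted p = 0.00644, and 0.0629 without shPcyt2-2 replicate 2, limma). LDHB, the subunit that favours pyruvate, had log2 fold changes of 0.16 and 0.15 and stood above both controls in all 4 knockdown libraries, but did not pass (adjusted p = 0.092 and 0.131, limma). LDHB passed without shNT replicate 1 (adjusted p = 0.0204 and 0.0292, limma). PDK1 and PDK3, kinases that switch off pyruvate dehydrogenase, had log2 fold changes from -0.28 to -0.047 and passed with neither hairpin. With GC content and gene length regressed out, LDHA passed with shPcyt2-1 (-0.30, adjusted p = 0.0291, limma) and PDK1 with shPcyt2-2 (-0.43, adjusted p = 0.0415, limma).

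The summed level of the 25 genes was 8960 and 8946 FPKM with shNT, 9399 and 9414 FPKM with shPcyt2-1, and 8669 and 9149 FPKM with shPcyt2-2. That was between 2.26% and 2.43% of all FPKM in each library. In FPKM, the shPcyt2-1 libraries were highest, and the shPcyt2-2 libraries lay on both sides of the controls. The sum averaged 8953 FPKM with shNT and 9406 FPKM with shPcyt2-1. GAPDH alone averaged 3048 FPKM and 3647 FPKM, a larger difference than that of the sum. The GAPDH rise was 0.26 on the log2 scale and 0.18 with median-ratio scaling. The sums were not recomputed with that scaling, so their order is given for FPKM only.

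**Figure D2:**
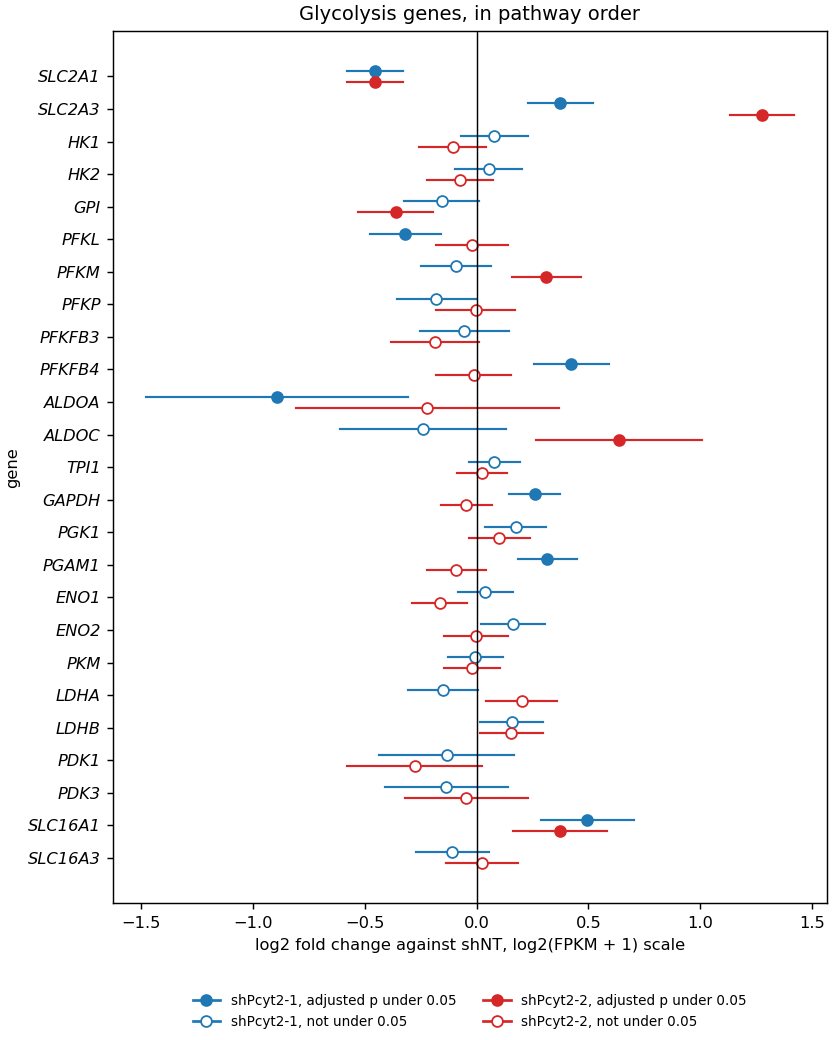
Log2 fold change against shNT (horizontal axis) of the 25 glycolysis genes, in the order of the pathway from glucose uptake to lactate export, with shPcyt2-1 in blue and shPcyt2-2 in red. Points are limma estimates from 2 libraries a group, bars are 95% confidence intervals and filled points have an adjusted p under 0.05: 8 of 25 with shPcyt2-1 and 6 with shPcyt2-2, where 26.7% and 12.4% of all tested genes passed.

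Other genes of glucose metabolism outside the 39 were tested by list. Calls of single genes from the lists outside the 39, here and below, were not followed under the alternatives. Of 14 further glycolysis genes tested, 4 rose and 1 fell with shPcyt2-1 and 1 fell with shPcyt2-2. That was 35.7% against 26.7% of all tested genes with shPcyt2-1 and 7.14% against 12.4% with shPcyt2-2. HKDC1, a hexokinase of low activity, was at 7.14 and 7.32 FPKM with shNT, 9.87 and 10.4 FPKM with shPcyt2-1, and 5.78 and 5.84 FPKM with shPcyt2-2, and rose with shPcyt2-1 by 0.44 (adjusted p = 0.00749, limma). ENO3, the muscle enolase, fell with shPcyt2-1 by 0.61 (adjusted p = 0.00181, limma). MPC2, a subunit of the mitochondrial pyruvate carrier, fell with shPcyt2-2 by 0.49 (adjusted p = 0.00741, limma). Of 10 genes of the pyruvate dehydrogenase complex and its regulators, 3 rose and 1 fell with shPcyt2-1 and 3 rose with shPcyt2-2, which was 40% against 26.7% and 30% against 12.4% of all tested genes. PDP1, the phosphatase that switches the complex on, was at 9.88 and 9.70 FPKM with shNT, 15.7 and 16.0 FPKM with shPcyt2-1, and 16.7 and 14.5 FPKM with shPcyt2-2. Each of the 4 knockdown libraries exceeded both controls for PDP1, and the log2 fold change was 0.64 (adjusted p = 0.00189, limma) and 0.62 (adjusted p = 0.00546, limma). DLAT, a core subunit of the complex, rose by 0.45 (adjusted p = 0.00775, limma) and 0.32 (adjusted p = 0.0476, limma).

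The HIF system was examined from the factor to its targets. HIF1A, the oxygen-regulated subunit, was at 11.6 and 10.4 FPKM with shNT, 15.0 and 13.5 FPKM with shPcyt2-1, and 13.2 and 11.1 FPKM with shPcyt2-2. Both shPcyt2-1 libraries were above both controls and the shPcyt2-2 libraries overlapped them. The log2 fold change with shPcyt2-1 was 0.34 ± 0.10 (SE, adjusted p = 0.0396, limma), was 0.13 (adjusted p = 0.147, limma) once GC content and gene length were regressed out of each library, and did not pass without shNT replicate 2 (adjusted p = 0.177, limma), shPcyt2-1 replicate 1 (adjusted p = 0.233, limma) or shPcyt2-1 replicate 2 (adjusted p = 0.0578, limma). The HIF1A call also ended with median-ratio scaling and with scaling without the 100 most abundant genes. HIF is controlled mainly through the stability of its protein, which was not measured here.

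EGLN3, an oxygen-sensing prolyl hydroxylase whose gene is itself a HIF target, was at 16.0 and 14.4 FPKM with shNT, 9.97 and 11.4 FPKM with shPcyt2-1, and 12.8 and 15.8 FPKM with shPcyt2-2. It fell with shPcyt2-1 by 0.47 (adjusted p = 0.0162, with 0.0648 without shNT replicate 1 and 0.099 without shPcyt2-1 replicate 1, limma). The EGLN3 difference between the hairpins was 0.39 (adjusted p = 0.0314, limma), and 0.25 without shPcyt2-2 replicate 2 (adjusted p = 0.189, limma). EGLN1, the main hydroxylase in oxygen, was at -0.29 on the log2 scale with shPcyt2-1 (adjusted p = 0.0665, limma, and 0.0243 with median-ratio scaling) and -0.14 with shPcyt2-2.

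CA9, NDRG1 and BHLHE40 fell with shPcyt2-1 under each of the 18 alternatives tried. CA9 (chromosome 9, 35673856 to 35681159) encodes carbonic anhydrase IX, an enzyme at the cell surface that controls pH and is one of the most used markers of hypoxia. It was at 39.4 and 44.9 FPKM with shNT, 25.9 and 28.1 FPKM with shPcyt2-1, and 38.5 and 42.6 FPKM with shPcyt2-2. The shPcyt2-1 libraries were below the other 4, and the shPcyt2-2 and shNT libraries overlapped. Against shNT the log2 change was -0.62 ± 0.087 (SE) with shPcyt2-1 (adjusted p = 0.00219, limma) and -0.053 ± 0.087 (SE) with shPcyt2-2 (adjusted p = 0.714, limma), and the difference between the hairpins was 0.57 (adjusted p = 0.00205, limma).

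NDRG1, a stress-induced gene known as a metastasis suppressor in colon cancer, was at 102 and 95.3 FPKM with shNT, 49.99 and 58.9 FPKM with shPcyt2-1, and 66.6 and 84.1 FPKM with shPcyt2-2. The 3 groups did not overlap. The log2 fold change was -0.85 ± 0.11 (SE) with shPcyt2-1 (adjusted p = 0.00182, limma) and -0.40 ± 0.11 (SE) with shPcyt2-2 (adjusted p = 0.0513, limma). With shPcyt2-2, NDRG1 passed without either shPcyt2-1 library (adjusted p = 0.0266 and 0.027, limma), without shPcyt2-2 replicate 2 (-0.56, adjusted p = 0.0448), with a mean of at least 1 FPKM (adjusted p = 0.0429) and with only the compared groups fitted (adjusted p = 0.0261). NDRG1 differed between the hairpins by 0.46 (adjusted p = 0.0171, limma), a call that ended without shPcyt2-1 replicate 1 (adjusted p = 0.0874, limma) and without shPcyt2-2 replicate 2 (0.29, adjusted p = 0.12, limma).

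BHLHE40 (chromosome 3, 4979116 to 4985323), a transcriptional repressor that HIF induces, was at 29.6 and 27.6 FPKM with shNT, 18.8 and 21.4 FPKM with shPcyt2-1, and 32.6 and 32.6 FPKM with shPcyt2-2. The shPcyt2-1 libraries were below both controls and the shPcyt2-2 libraries above both. On the log2 scale the change was -0.49 ± 0.081 (SE) with shPcyt2-1 (adjusted p = 0.00389, limma) and 0.18 ± 0.081 (SE) with shPcyt2-2 (adjusted p = 0.161, limma), with a difference of 0.67 (adjusted p = 0.000655, limma).

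VEGFA, the growth factor of blood vessels, had the same order of groups. It was at 15.2 and 15.6 FPKM with shNT, 12.5 and 11.6 FPKM with shPcyt2-1, and 16.6 and 17.8 FPKM with shPcyt2-2, with no overlap. Against shNT the log2 change was -0.33 ± 0.080 (SE) with shPcyt2-1 (adjusted p = 0.017, limma) and 0.15 ± 0.080 (SE) with shPcyt2-2 (adjusted p = 0.232, limma), and the hairpins differed by 0.48 (adjusted p = 0.00297, limma). The VEGFA call with shPcyt2-1 ended without shNT replicate 2 (adjusted p = 0.0659, limma) and without either shPcyt2-1 library (adjusted p = 0.0614 and 0.121, limma).

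ANKRD37, a small ankyrin repeat gene induced in hypoxia, was at 8.95 and 6.88 FPKM with shNT, 4.59 and 4.46 FPKM with shPcyt2-1, and 5.37 and 9.12 FPKM with shPcyt2-2. The shPcyt2-2 libraries were far apart, on both sides of the controls. It fell with shPcyt2-1 by 0.68 (adjusted p = 0.0326, limma), which did not pass without any one of the shNT libraries (adjusted p = 0.144 and 0.0501, limma) or shPcyt2-1 libraries (adjusted p = 0.0668 and 0.0626, limma). ADM went the other way. This gene for adrenomedullin, a vasodilator peptide, was at 2.17 and 2.86 FPKM with shNT, 4.47 and 3.63 FPKM with shPcyt2-1, and 2.38 and 2.46 FPKM with shPcyt2-2. It rose with shPcyt2-1 by 0.52 ± 0.13 (SE, adjusted p = 0.0188, with 0.088 without shNT replicate 1 and 0.142 without shPcyt2-1 replicate 1, limma).

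The remaining HIF targets passed with neither hairpin. The collagen prolyl hydroxylases P4HA1 and P4HA2, the histone demethylase KDM3A and the mitophagy receptor BNIP3L had log2 fold changes between -0.15 and 0.037 with shPcyt2-1 and between 0.063 and 0.31 with shPcyt2-2. BNIP3L passed with shPcyt2-2 without shNT replicate 1 (adjusted p = 0.0162, limma), as did P4HA1 (adjusted p = 0.022, limma). KDM3A differed between the hairpins by 0.26 (adjusted p = 0.0456, limma), a call that ended without any one of the 4 knockdown libraries (adjusted p = 0.176, 0.227, 0.112 and 0.127, limma). With GC content and gene length regressed out, KDM3A passed with shPcyt2-1 (-0.30, adjusted p = 0.0185, limma). BNIP3, the other mitophagy receptor and among the most strongly hypoxia-induced genes of many cells, was not tested. It was between 0.0747 and 0.202 FPKM in the 6 libraries.

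**Figure D3:**
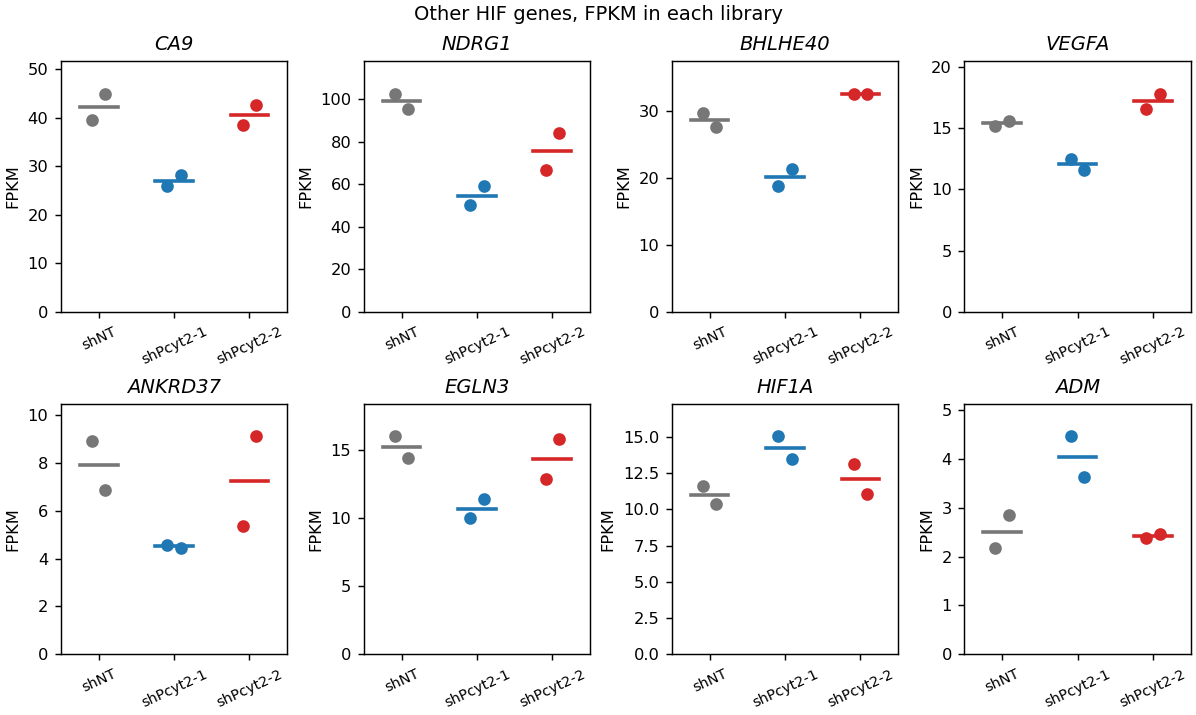
FPKM (vertical axes, from 0) in each group of the 8 other HIF genes, of 13 tested, that passed with shPcyt2-1. The 5 that did not pass are not shown. Points are libraries and bars are means of 2. CA9, NDRG1, BHLHE40, VEGFA, ANKRD37 and EGLN3 were lowest in the 2 shPcyt2-1 libraries, and HIF1A and ADM were highest there.

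The summed level of the 14 other HIF genes was 293 and 279 FPKM with shNT, 202 and 215 FPKM with shPcyt2-1, and 260 and 288 FPKM with shPcyt2-2. The shPcyt2-1 libraries were below the other 4, and NDRG1 was the most abundant of the 14. Between the hairpins 6 of the 13 tested genes were higher and 1 lower with shPcyt2-2, against 12.9% and 14.2% of all tested genes, with a median difference of 0.27 against -0.023 over all tested genes. Without shPcyt2-1 replicate 1 or shPcyt2-2 replicate 2 the calls were 3 (BHLHE40, CA9 and VEGFA, all higher), beside 1662 and 1891 of all tested genes. The lower one with all libraries was ADM, with a difference of -0.56 (adjusted p = 0.0132, limma), which did not pass without shPcyt2-1 replicate 1 (adjusted p = 0.102, limma) or either shPcyt2-2 library (adjusted p = 0.0652 and 0.0602, limma).

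**Figure D4:**
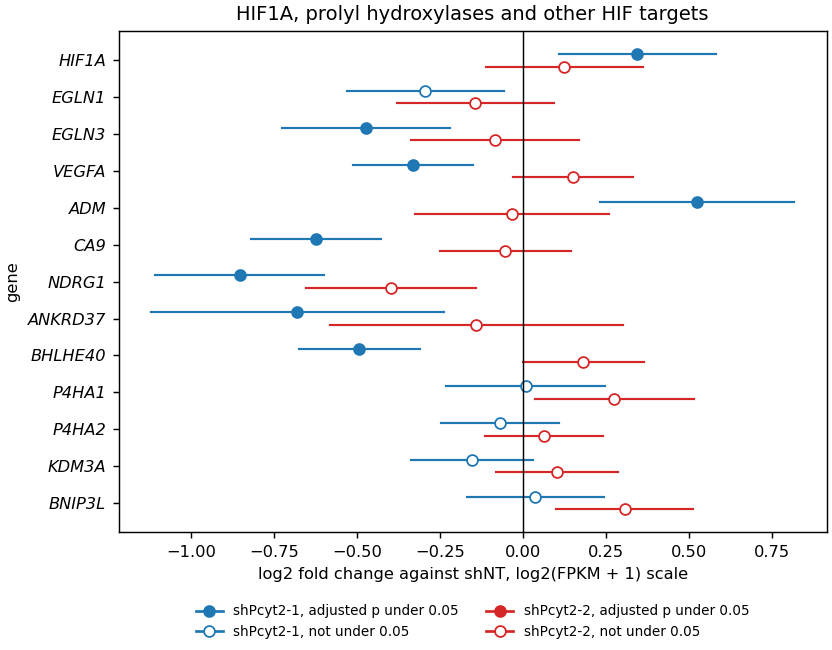
Log2 fold change against shNT (horizontal axis) of HIF1A, its prolyl hydroxylases and the other HIF targets tested, with shPcyt2-1 in blue and shPcyt2-2 in red; points are limma estimates from 2 libraries a group, bars are 95% confidence intervals and filled points have an adjusted p under 0.05. With shPcyt2-1, 8 of 13 genes passed, 6 of them lower, where 26.7% of all tested genes passed, 10.1% lower (3 of 13 without shPcyt2-1 replicate 1), and with shPcyt2-2 none of the 13 did, against 12.4%.

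Further HIF targets moved in both directions. Of 29 further targets outside the 39 genes, 24 were tested, and 4 rose and 4 fell with shPcyt2-1 with a median log2 fold change of 0.017, while 2 rose and 2 fell with shPcyt2-2 with a median of 0.13. The share that passed was 33.3% against 26.7% of all tested genes with shPcyt2-1 and 16.7% against 12.4% with shPcyt2-2. LOXL2, a lysyl oxidase that crosslinks collagen, was at 6.23 and 6.31 FPKM with shNT, 2.42 and 2.59 FPKM with shPcyt2-1, and 8.09 and 8.64 FPKM with shPcyt2-2. It fell by 1.05 with shPcyt2-1 (adjusted p = 0.000388, limma) and rose by 0.36 with shPcyt2-2 (adjusted p = 0.0356, limma). ERO1A, an oxidase of the endoplasmic reticulum, rose with shPcyt2-1 by 0.59 (adjusted p = 0.00256, limma).

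Other parts of the HIF system were also tested in 11 of 12 genes. With shPcyt2-1, 4 rose (ARNT2, ELOC, CUL2 and CITED2) and 1 fell (EPAS1), and with shPcyt2-2 HIF1AN rose and EPAS1 fell, which was 45.5% against 26.7% and 18.2% against 12.4% of all tested genes. EPAS1, which encodes HIF-2α, was at 8.28 and 9.31 FPKM with shNT, 5.07 and 5.68 FPKM with shPcyt2-1, and 5.90 and 5.56 FPKM with shPcyt2-2. All 4 knockdown libraries were below both controls, and the log2 fold change was -0.62 (adjusted p = 0.00368, limma) and -0.54 (adjusted p = 0.0133, limma). CITED2, which competes with HIF for its coactivator, rose with shPcyt2-1 by 0.68 (adjusted p = 0.00383, limma), and ARNT2, a partner subunit of HIF, by 0.59 (adjusted p = 0.00862, limma).

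Promoter sequence was set beside these changes for 5 of the genes that fell or rose with shPcyt2-1. RefSeq start sites (GRCh38.p14) gave windows of 250 bases before the start for 34 of the 39 genes, the others being SLC2A3, VEGFA, BNIP3L, SLC16A1 and NDRG1. These starts are not the outer ends of the gene coordinates given above, and the window of CA9 lies partly inside them and those of the other 4 genes shown wholly inside. The windows were searched for the cores of the hypoxia response element, ACGTG and GCGTG, on both strands, where the palindrome CACGTG counts once on each strand. ACGTG was in 15 of the 34 windows (44.1%), in 6 of the 11 of the other HIF genes, in 23.7% of the windows of tested genes and in 18.7% of all 27305 windows. GCGTG was in 35.3% of the 34, in 46.4% of the windows of tested genes and in 31.9% of all windows. At least 1 of the cores was in 64.7% of the 34 and in 58.2% of the windows of tested genes. A match is a run of letters and not evidence of binding. The windows of CA9 (chr9:35673678-35673927, plus strand), BHLHE40 (chr3:4979187-4979436, plus strand), ANKRD37 (chr4:185396591-185396840, plus strand) and EGLN3 (chr14:33951075-33951324, minus strand), which fell, and of ADM (chr11:10304823-10305072, plus strand), which rose, are shown 5′ to 3′ with the matches in capitals.
CA9: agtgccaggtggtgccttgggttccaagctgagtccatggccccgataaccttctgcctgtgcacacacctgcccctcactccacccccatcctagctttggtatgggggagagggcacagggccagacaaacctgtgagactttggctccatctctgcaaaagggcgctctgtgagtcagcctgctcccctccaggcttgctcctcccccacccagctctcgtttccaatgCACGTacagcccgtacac
BHLHE40: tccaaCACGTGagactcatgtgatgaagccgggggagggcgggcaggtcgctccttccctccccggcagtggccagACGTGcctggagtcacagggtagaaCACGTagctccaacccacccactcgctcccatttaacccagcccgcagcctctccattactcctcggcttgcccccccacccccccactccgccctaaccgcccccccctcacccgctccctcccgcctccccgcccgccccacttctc
ANKRD37: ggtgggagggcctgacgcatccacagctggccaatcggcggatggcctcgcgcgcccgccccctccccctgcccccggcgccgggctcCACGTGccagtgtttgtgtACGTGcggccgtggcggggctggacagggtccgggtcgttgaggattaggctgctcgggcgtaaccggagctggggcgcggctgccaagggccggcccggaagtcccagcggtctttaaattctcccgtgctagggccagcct
EGLN3: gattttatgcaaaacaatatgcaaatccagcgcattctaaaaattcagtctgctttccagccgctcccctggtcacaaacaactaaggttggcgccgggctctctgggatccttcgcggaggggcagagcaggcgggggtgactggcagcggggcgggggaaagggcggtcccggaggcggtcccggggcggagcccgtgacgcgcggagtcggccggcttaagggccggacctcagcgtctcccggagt
ADM: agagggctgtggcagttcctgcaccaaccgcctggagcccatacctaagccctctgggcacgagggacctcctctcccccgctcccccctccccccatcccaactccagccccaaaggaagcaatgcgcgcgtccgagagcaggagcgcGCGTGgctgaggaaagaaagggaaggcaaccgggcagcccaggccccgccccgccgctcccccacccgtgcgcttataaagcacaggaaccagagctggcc
CA9 had 1 ACGTG match, on the opposite strand, BHLHE40 had 4 and ANKRD37 had 3. ADM had a single GCGTG match, as had the window of HIF1A, which is not shown, and EGLN3 had neither core in this window.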

How the data were processed

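The authors deposited 1 table of FPKM values per library, with no read counts. The unit name is inferred from the values and the methods, and the submitters' processing notes name the builds GRCm38, mm10 and GRCh38, though the cells are human. Of the 2 library kits given in the labels, the one behind each library is not stated. The members and lists were chosen with earlier results of these data known. Gene symbols and coordinates came from GENCODE (GRCh38) by Ensembl identifier. Genes with a mean of at least 0.5 FPKM over the 6 libraries were tested on log2(FPKM + 1) with limma 3.58.1 in R 4.3.3, with a variance trend, 1 fit of the 3 groups, a second fit with both hairpins as 1 group, and Benjamini-Hochberg adjustment over 12756 genes. Depth is known only as a ratio between libraries. The procedure was tested on simulated data: false calls were near the threshold's aim when gene variances came from the fitted prior and exceeded it when each gene kept its own shrunken variance. Values in every library were given for PCYT2, for SLC2A1, HK2, PFKFB3, PKM, LDHA, HIF1A, VEGFA and CA9, and for up to 4 called members with the largest change per comparison, separately in the glycolysis genes and the other HIF genes. Other members were described by isoform, and up to 3 called genes were named from most further lists. For the other parts of the HIF system and the epithelial markers, every gene called against shNT was named. Alternatives were the pseudocount, the expression limit, scaling, GC content and length, the variance model, the replicate block and leaving out each library. Single genes were followed under them only for PCYT2 and the members, so calls of genes from the other lists were not checked this way.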

Additional observations from a re-analysis of the deposited data

Results flagged for a closer look

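The 2 hairpins, meant to lower the same gene, differed from each other in 16 of the 38 tested members by limma's test of the difference itself, where 27.1% of all tested genes differed. The differences that follow are log2 values of shPcyt2-2 minus shPcyt2-1, and each passed a limma adjusted p of 0.05. Among glycolysis genes they were 0.90 for SLC2A3, 0.88 for ALDOC, 0.40 for PFKM, 0.35 for LDHA and 0.30 for PFKL, all higher with shPcyt2-2. They were -0.44 for PFKFB4, -0.41 for PGAM1, -0.30 for GAPDH and -0.20 for ENO1, all lower with shPcyt2-2. The PFKL and ENO1 differences did not pass without any one of the 4 knockdown libraries, nor GAPDH with median-ratio scaling (adjusted p = 0.0566, limma). Among the other HIF genes they were 0.67 for BHLHE40, 0.57 for CA9, 0.48 for VEGFA, 0.46 for NDRG1, 0.39 for EGLN3 and 0.26 for KDM3A, and -0.56 for ADM. PCYT2 itself differed between the hairpins by -0.15 (adjusted p = 0.309, 95% confidence interval -0.37 to 0.080, limma). With GC content and length regressed out, the PCYT2 difference was -0.22 (adjusted p = 0.0271, limma).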

How the results depend on the processing

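No called member changed sign in any of 18 alternatives. Several of these, such as the variance models and the replicate block, leave fold changes as they were, so signs could not change there. Of the calls, 7 of 16 held in all 18 with shPcyt2-1, 1 of 6 with shPcyt2-2 and 7 of 16 between the hairpins. With 1 library left out, and the lone sample assumed to vary like the other groups, 9 to 15 members passed with shPcyt2-1, 1 to 10 with shPcyt2-2, 9 to 18 between the hairpins and 0 to 0 with the hairpins pooled. The counts over all tested genes were 1147 to 3256, 125 to 1893, 1662 to 3785 and 0 to 1. The median of the members minus that of all tested genes was -0.15, -0.061 and 0.13, and ranged from -0.18 to -0.11, from -0.096 to 0.0097 and from 0.097 to 0.14. With no expression limit, 9, 2 and 7 members passed, 1831 and 124 of all genes passed with the single hairpins and 7 with both pooled, and the median was -0.091 with shPcyt2-1 and 0.091 between the hairpins. With GC content and length removed, the shPcyt2-2 median was 0.013. With no variance trend, 2 members and 1027 genes passed with shPcyt2-2. With the hairpins' mean from the 3-group fit, 6 members and 2142 genes passed. The single gene that passed with the hairpins pooled was lost (0 genes) with a pseudocount of 0.1, a mean of at least 1 or the replicate block. With the replicate block 18, 8, 17 and 0 members and 3884, 2029 and 3869 genes passed, which added PGK1 (adjusted p = 0.047, limma) and LDHB (0.0494) with shPcyt2-1, ENO1 (0.0371) and NDRG1 (0.0402) with shPcyt2-2 and BNIP3L (0.0492) between the hairpins. Same-numbered libraries were not taken as pairs: their deviations correlated at 0.0027 and 0.062 between shNT and the hairpins, and at 0.19 between the hairpins, where a shared source was not tested. The causes were not tested. Depth limits low genes such as BNIP3, and 2 libraries a group limit every estimate.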

Other observations

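Of 7 pentose phosphate pathway genes, which branch from glucose 6-phosphate, 2 rose with shPcyt2-1, and 1 rose and 2 fell with shPcyt2-2. That was 28.6% against 26.7% of all tested genes with shPcyt2-1 and 42.9% against 12.4% with shPcyt2-2. RPIA, the isomerase that makes ribose 5-phosphate, was at 25.1 and 25.4 FPKM with shNT, 27.8 and 28.8 FPKM with shPcyt2-1, and 14.6 and 15.6 FPKM with shPcyt2-2. It fell with shPcyt2-2 by 0.70 (adjusted p = 0.00186, limma), and the 3 groups did not overlap. RPE, an epimerase, rose with shPcyt2-2 by 0.40 (adjusted p = 0.0394, limma).

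None of 5 gluconeogenesis genes tested passed in limma with either hairpin, and 2 had an unadjusted p under 0.05 with shPcyt2-1 and 0 with shPcyt2-2, against 26.7% and 12.4% of all tested genes that passed and 5211 and 3971 of 12756 with an unadjusted p under 0.05.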
